A study of Mus musculus with 9 samples.

Results

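The Bex and Tceal genes encode small proteins and form a family on the X chromosome of placental mammals. The 10 members described here are Bex1, Bex2, Bex3, Bex4, Tceal1, Tceal3, Tceal5, Tceal6, Tceal7 and Tceal8, out of 38293 genes in the count table. They were chosen by their counts in Arid1a cKO against control hearts, because several of them were higher in cKO, so for the members the values and calls of this contrast are a description and support nothing. Of the 10, 9 passed the filter on low counts, and Tceal3 did not.

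BEX proteins (brain-expressed X-linked) are short, largely disordered proteins that are abundant in neurons and endocrine cells. BEX1 and BEX3 bind the p75 neurotrophin receptor, and BEX1 is also known as an RNA-binding protein that is induced in the failing heart. The TCEAL genes are named for the likeness of their products to transcription elongation factor A (TFIIS), and several TCEAL proteins act as modulators of transcription.

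Poly(A) RNA of mouse ventricles at postnatal day 7 (P7) was sequenced from 5 control libraries (Arid1a f/f) and 4 cKO libraries (aMHC-Cre;Arid1a f/f). Controls were littermates with both Arid1a alleles floxed and no Cre, so the floxed alleles are common to both groups and the Cre transgene is carried by cKO mice alone. The alpha myosin heavy chain promoter drives Cre in cardiomyocytes, whereas the tissue was whole ventricle, which also holds fibroblasts, endothelial cells and nerve fibres, in which this promoter is not active. Arid1a, whose product belongs to the SWI/SNF complexes that remodel chromatin, was measured at 142, 128, 133, 147 and 148 CPM (counts per 1000000 of the scaled library total) in control and at 108, 113, 100.3 and 104 CPM in cKO libraries, a log2 fold change of -0.39 (SE 0.06).

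Library totals ran from 31011055 to 40073801 counts, so that 1 count was worth 0.0242 to 0.0323 CPM, and Spearman correlations within a group were 0.982 to 0.995. Xist, the RNA that coats the inactive X chromosome, stood at 100 CPM or more in 4 libraries (control 2 and 3, cKO 3 and 4) and near 0 in the other 5. The libraries also fell into sets that cross the groups, since Rps3a3, which is annotated as a copy of Rps3a1 (a gene of the small ribosomal subunit), stood at 10 CPM or more in control 3, 4 and 5 and cKO 4 and at most at 0.521 CPM in the other 5 libraries. The study counts its replicates as separate hearts, although the labels name no animals, and p-values measure the spread between these libraries. Values within the Rps3a3 and Xist sets are given beside the members below.

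All 10 members lie on the X chromosome (build GRCm38) within 1503 kb. In order along the chromosome they are Tceal6, Bex2, Bex4, Tceal8, Tceal5, Bex1, Tceal7, Bex3, Tceal3 and Tceal1. Bex2, Tceal8, Tceal5, Bex1 and Tceal6 are on the minus strand, and Bex4, Tceal7, Bex3, Tceal3 and Tceal1 on the plus strand. RefSeq start sites (GRCm38.p6) were matched for all 10 members. The 250 bases before the start of Bex1 and of Bex4 were 97.5% identical over 244 aligned bases, with a shared run of 221 bases, although these genes differ in strand and have other members between them. The windows of Bex2 and Bex3 were 81.7% identical over 213 bases, with a shared run of 145, and no other pair of members exceeded 42.0%. These windows are shown, with that of Tceal7, because the members whose levels differed most between the groups (Tceal7, Bex1, Bex4) are among them, and because the Bex1 and Bex4 windows are nearly alike. Each is written 5′ to 3′ on the strand of its gene, and capitals mark the letters CATTCC, the core of the TEAD motif, or GGAATG, the same letters on the opposite strand.
Bex1: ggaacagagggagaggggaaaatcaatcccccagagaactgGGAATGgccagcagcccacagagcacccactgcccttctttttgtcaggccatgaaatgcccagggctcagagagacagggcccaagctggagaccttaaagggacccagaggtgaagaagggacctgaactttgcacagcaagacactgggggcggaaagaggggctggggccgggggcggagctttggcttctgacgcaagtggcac
Bex4: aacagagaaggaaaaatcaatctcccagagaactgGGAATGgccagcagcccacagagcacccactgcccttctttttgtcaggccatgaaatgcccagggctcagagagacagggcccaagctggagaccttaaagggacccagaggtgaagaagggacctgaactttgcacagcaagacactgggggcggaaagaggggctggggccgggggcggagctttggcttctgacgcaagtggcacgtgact
Bex2: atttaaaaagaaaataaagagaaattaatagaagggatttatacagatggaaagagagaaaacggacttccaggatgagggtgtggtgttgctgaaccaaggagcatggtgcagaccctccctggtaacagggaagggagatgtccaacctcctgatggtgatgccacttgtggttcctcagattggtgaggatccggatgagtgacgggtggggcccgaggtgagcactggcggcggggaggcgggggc
Bex3: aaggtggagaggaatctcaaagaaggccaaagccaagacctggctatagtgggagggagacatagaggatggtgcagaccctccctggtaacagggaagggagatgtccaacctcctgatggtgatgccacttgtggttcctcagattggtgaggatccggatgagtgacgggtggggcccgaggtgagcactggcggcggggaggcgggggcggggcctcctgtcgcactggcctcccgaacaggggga
Tceal7: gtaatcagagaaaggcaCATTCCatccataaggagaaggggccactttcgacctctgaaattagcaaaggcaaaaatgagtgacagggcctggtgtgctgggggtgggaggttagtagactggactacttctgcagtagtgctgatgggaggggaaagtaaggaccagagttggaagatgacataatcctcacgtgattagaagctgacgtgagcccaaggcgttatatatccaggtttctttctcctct
The Bex1 window spans chrX:136215514-136215763 (minus strand), that of Bex4 chrX:136138746-136138995 (plus strand), that of Bex2 chrX:136068237-136068486 (minus strand), that of Bex3 chrX:136270003-136270252 (plus strand) and that of Tceal7 chrX:136223791-136224040 (plus strand).

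Motifs were searched on both strands in windows of 300 bases, 250 before and 50 after each RefSeq start, of which the members have 14. TEAD factors are the DNA-binding partners of YAP, and their core letters CATTCC were found in 4 of the 14 windows, at -209 in Bex1, -215 in Bex4, -233 in Tceal7 and -56 in Tceal8, counted from the start site. Of all 32851 RefSeq windows, 14.7% held them. The matches of Bex1 and Bex4 lie in the stretch these genes share and are not separate instances. The AP-1 letters TGANTCA were found in 0 of the 14 windows (7.81% of all windows), the YY1 core ATGGCG in 1, of Tceal3 (8.93%), and the E-box CANNTG in all 14 (72.3%). No matched letters overlapped those of another motif in the windows printed above. The GC content of the member windows ran from 47.7% in Tceal8 to 65.3% in a window of Tceal3, around the median of 52.7% over all windows. The ratio of observed to expected CpG ran from 0.260 in a Tceal5 window to 0.651 in Tceal8, against a median of 0.384. A match says only that these letters lie in the window.

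Levels of different genes are compared per kilobase of exon (CPM per kb, on the GENCODE exon union of each gene). In control ventricles, Bex3 had the highest level at 52.4 ± 3.05 CPM per kb (SD, n = 5), followed by Tceal8 at 39.0 ± 1.94 and Bex1 at 13.6 ± 1.36. Tceal7 stood at 6.99 ± 1.44, Tceal1 at 5.73 ± 0.590, Bex4 at 4.34 ± 0.467 and Tceal5 at 3.78 ± 0.394 CPM per kb. Among these 4, each gene's range over libraries overlapped that of the next in the order. Bex2 (0.399 ± 0.328), Tceal6 (0.282 ± 0.104) and Tceal3 (0.0902 ± 0.0308) were near the limit of detection, and the ranges of Bex2 and Tceal6 overlapped. With the longest transcript in place of the exon union, 8 of 10 members kept their rank, and Bex4 and Tceal5 changed places.

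In Arid1a cKO ventricles the order began with Tceal7 at 90.1 ± 16.8 CPM per kb (SD, n = 4) and Bex1 at 62.4 ± 10.3, ahead of Bex3 at 59.8 ± 4.59 and Tceal8 at 57.3 ± 4.43. The range of Tceal7 overlapped that of Bex1, and the ranges of Bex1, Bex3 and Tceal8 overlapped each other. Bex4 stood at 19.3 ± 1.14 and Tceal5 at 10.03 ± 0.893, above Tceal1 at 4.18 ± 0.398. Summed over all 10 members, the level was 126.7 ± 5.43 CPM per kb in control (118.7 to 132.5) and 304.1 ± 18.3 in cKO libraries (287.2 to 327.1). Tceal7 made up 5.51% of that sum in control and 29.5% in cKO, and Bex1 10.7% and 20.5%. The share of Bex3 was 41.4% in control and 19.7% in cKO, and that of Tceal8 was 30.8% and 18.9%, although neither gene was lower in cKO.

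**Figure D1:**
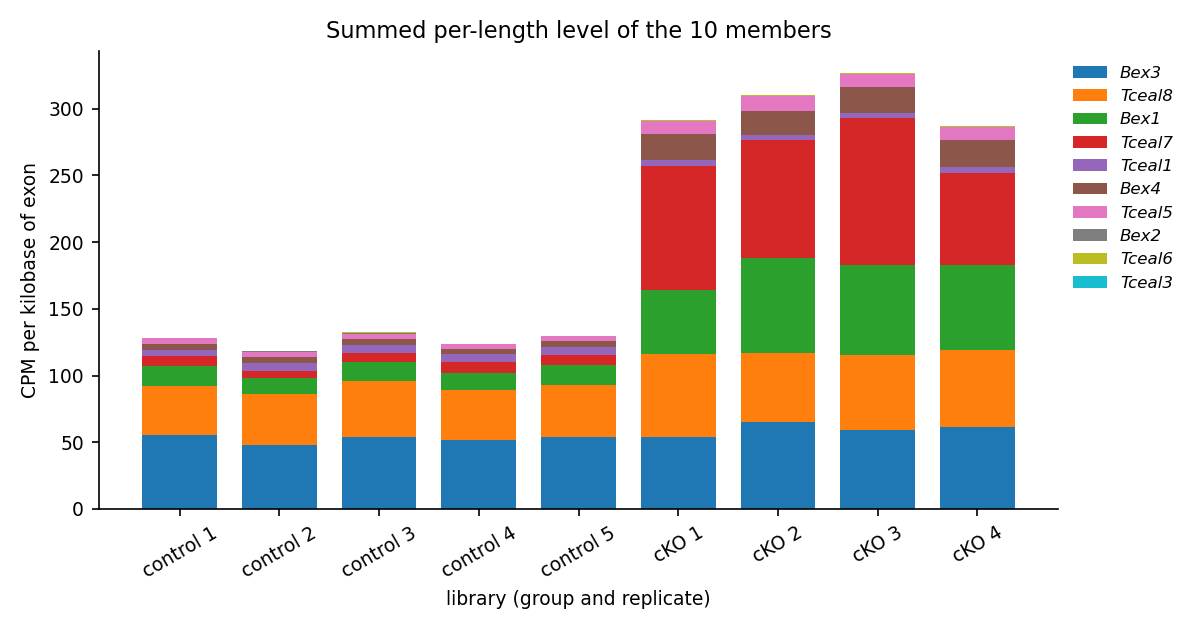
Stacked bars give the summed level of the 10 members, in CPM per kilobase of exon, in each control and cKO library, with each colour standing for 1 member. The 5 control bars reach 118.7 to 132.5 and the 4 cKO bars 287.2 to 327.1, with the Tceal7 (red) and Bex1 (green) segments making up most of the added height.

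Of the 9 tested members, 5 were called higher in cKO (Tceal7, Bex1, Bex4, Tceal5 and Tceal6) and 0 lower, where a call is an edgeR adjusted p under 0.05 with a fold over 1.5. Of all 15318 genes tested, 6.72% were called, 4.01% higher and 2.72% lower, and DESeq2 called 7.4%. At the adjusted p alone, 6 members were higher and 1 (Tceal1) lower, against 8.25% and 8.03% of all genes. The groups did not overlap for 6 members (5 higher and 1 lower in cKO), as for 16.7% of all genes tested (8.16% higher and 8.58% lower). The median log2 fold change of the tested members was 1.14, and that of all genes was 0.01. Tceal6 passed the filter on low counts through its cKO libraries, so its test was not independent of the groups. Since this contrast chose the members, these counts of members describe the choice and nothing is read from them.

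Tceal7, a nuclear protein known as a repressor of NF-κB and Myc activity and as a gene of myogenic cells, had the highest fold of the family. It was measured at 9.09, 5.62, 8.45, 10.3 and 9.12 CPM in control 1 to 5 and at 113, 108, 134 and 84.0 CPM in cKO 1 to 4. Every cKO library exceeded every control library, the lowest cKO library by several-fold. Means ± SD were 8.51 ± 1.75 CPM (n = 5) and 109.6 ± 20.4 CPM (n = 4). The log2 fold change was 3.69 (SE 0.18), or 12.9-fold. The gene (ENSMUSG00000079428) spans chrX:136214779-136226100.

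Bex1 was measured at 17.6, 14.2, 16.6, 14.6 and 17.6 CPM in control and at 56.5, 84.4, 79.8 and 75.6 CPM in cKO libraries. The groups were well apart, and cKO 1 was the lowest of its group. Means were 16.1 ± 1.61 and 74.1 ± 12.3 CPM, a log2 fold change of 2.20 (SE 0.12). Bex1 (ENSMUSG00000050071, chrX:136213972-136215513) and Tceal7 lie on opposite strands and overlap at their 5′ ends, where a longer Tceal7 transcript starts inside Bex1. They share 223 exonic bases, 18.8% of Bex1 and 18.3% of Tceal7. The library kit keeps strand, but the strand setting of the counting is not given in the sources used here, so reads in these bases cannot be assigned with certainty.

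Bex4, which is known to associate with microtubules, was measured at 3.31, 3.85, 3.795, 3.15 and 4.07 CPM in control and at 16.1, 14.9, 16.5 and 17.2 CPM in cKO libraries. The cKO libraries lay close together, far above every control library. Means were 3.64 ± 0.391 and 16.2 ± 0.955 CPM, a log2 fold change of 2.15 (SE 0.11). Of the 75-base windows of the Bex4 (ENSMUSG00000047844, chrX:136138996-136140443) transcripts, at the length of the reads, 38.3% also occur in Bex1 or in the pseudogenes Gm4322 and Gm12245. Of the Bex1 windows, 16.4% also occur in Bex4 or Bex2. Part of the Bex4 and Bex1 counts is therefore uncertain, and how the counting treated such reads was not tested.

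Tceal5 was measured at 5.45, 4.17, 5.07, 4.69 and 4.49 CPM in control and at 12.5, 14.3, 11.9 and 11.9 CPM in cKO libraries. The groups did not overlap. Means were 4.77 ± 0.497 and 12.7 ± 1.13 CPM, a log2 fold change of 1.41 (SE 0.11). Tceal6 held few reads, with 9, 17, 13, 8 and 6 counts in control and 23, 15, 27 and 37 counts in cKO libraries. Here cKO 2 fell inside the control range. The log2 fold change was 1.14 (SE 0.34), or 2.20-fold, from 0.314 ± 0.116 to 0.698 ± 0.213 CPM. The Tceal6 call was kept in 2 of the 9 fits that left out a library (without cKO 2 or control 2). It was lost without a filter on low counts and with the replicate number as a term. Only the controls with 17 and 13 counts reached the filter's minimum count, whereas every cKO library did. Tceal3 had the same 53 counts summed over controls and did not pass. Tceal6 was therefore counted among the 9 tested members because of the group in which it was higher. Tceal5 (ENSMUSG00000054034, chrX:136200948-136203876) shares 21.6% of its windows and Tceal6 (ENSMUSG00000031409, chrX:135208687-135210687) 29.5% with each other or with Tceal3.

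**Figure D2:**
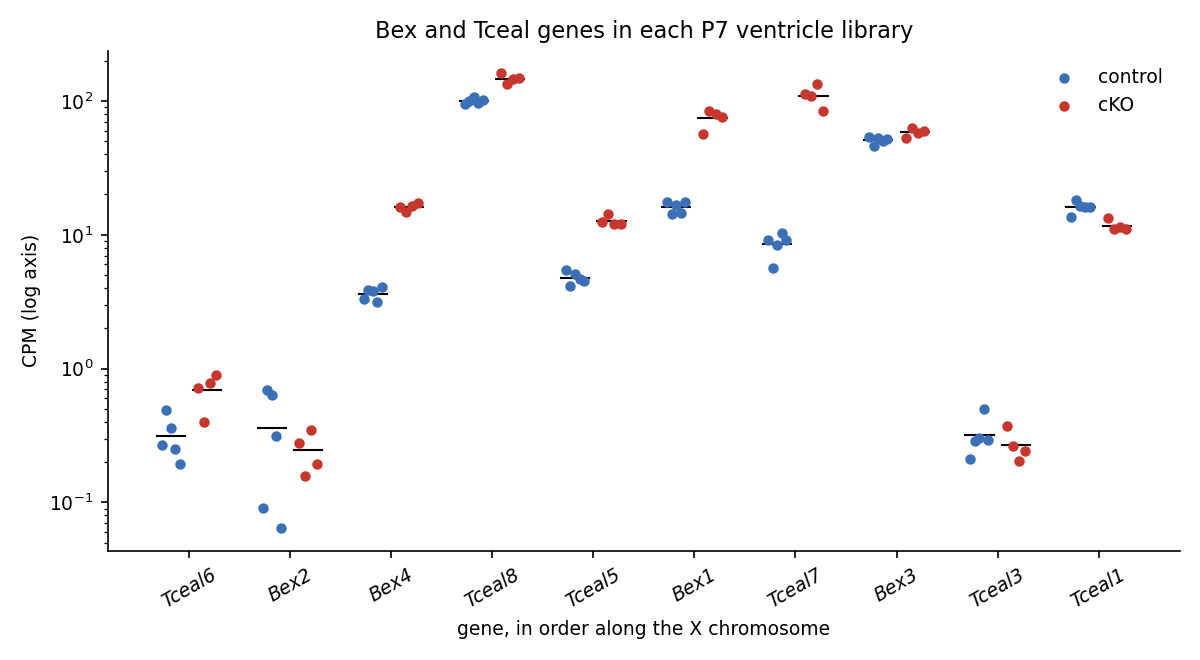
Points give CPM on a log axis for each of 5 control (blue) and 4 cKO (red) libraries, with black lines at the group means, for the 10 members in order along the X chromosome. The control and cKO points stand apart for Tceal7, Bex1, Bex4, Tceal5 and Tceal8 (cKO higher) and narrowly for Tceal1 (cKO lower), and overlap for Tceal6, Bex2, Bex3 and Tceal3.

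Tceal8 lay just outside the fold threshold at 1.47-fold, while Tceal6 was the called member of lowest fold. Tceal8 was measured at 94.6, 99.3, 108, 97.1 and 101 CPM in control and at 160.4, 133, 145 and 149 CPM in cKO libraries. No control library reached a cKO library, and the log2 fold change was 0.55 (SE 0.07). Tceal1, a nuclear phosphoprotein that modulates transcription in a promoter-dependent way, differed in the other direction. It was measured at 13.5, 18.1, 16.4, 16.2 and 16.1 CPM in control and at 13.4, 11.1, 11.5 and 11.02 CPM in cKO libraries. The groups were separated only narrowly, between control 1 and cKO 1, and the log2 fold change was -0.45 (SE 0.10).

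Bex3, the member with the highest level in control, was measured at 54.0, 46.4, 52.6, 49.99 and 52.2 CPM in control and at 52.5, 63.1, 57.3 and 59.8 CPM in cKO libraries. The groups overlapped, with a log2 fold change of 0.19 (SE 0.07), and Bex3 was not called. Bex2, a regulator of apoptosis in cell lines, held 3, 24, 23, 10 and 2 counts in control and 9, 6, 12 and 8 counts in cKO libraries. Its controls spread wider than the difference between the groups, a log2 fold change of -0.58 (SE 0.61). Of the 75-base windows of the Bex2 transcripts, 14.5% also occur in Bex3 or Bex1, so part of the Bex2 counts is uncertain. Tceal3 held 7, 10, 11, 16 and 9 counts in control and 12, 10, 7 and 10 counts in cKO libraries, and the groups overlapped.

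Apart from Tceal7 and the weakly detected Bex2, the members spread among control libraries about as much as genes of like level, or less. The coefficient of variation of Bex1 was 9.99%, against a median of 10.1% over genes of like level, and that of Tceal8 was 4.97%, against 7.44%. Tceal7 was more variable, with 20.5% in control (median 12.3%) and 18.6% in cKO libraries (median 8.09%), and Bex1 spread by 16.5% within cKO (median 8.22%). Bex4 spread by 5.90% within cKO, less than genes of like level (10.8%).

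Each member was then compared between libraries in ways that its choice did not use. The difference between 4 Xist-high and 5 Xist-low libraries, with genotype in the model, bears on these X-linked genes because both groups held libraries of either kind. In this test 0 of 9 members passed an edgeR adjusted p of 0.05, against 0.0522% of all genes, with 2 at an unadjusted p under 0.05 (Bex2 and Tceal6, both near the detection limit) and 0 with DESeq2. Log2 differences ran from -0.23 (Tceal7, SE 0.16) to 1.31 (Bex2, SE 0.50). For Bex1 the difference was 0.01 (SE 0.12), for Bex4 0.12 (SE 0.11) and for Bex3 -0.03 (SE 0.08). The genotype difference was also tested against Xist level as an interaction, in which 0 of 9 members passed (0.00653% of all genes), with 0 at an unadjusted p under 0.05 and 0 with DESeq2. On the log2 scale it ran from -1.77 (Bex2, SE 0.93) to 0.41 (Tceal7, SE 0.31) and was 0.25 (SE 0.25) for Bex1 and -0.01 (SE 0.22) for Bex4.

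Between Rps3a3-high and Rps3a3-low libraries, with genotype in the model, 0 of 9 members passed the adjusted p (4.81% of all genes), with 0 at an unadjusted p under 0.05 and 0 with DESeq2. Log2 differences were -0.27 (Bex2, SE 0.65) to 0.07 (Bex4, SE 0.11). The genotype difference of Tceal7 was 3.18 (SE 0.10) within the Rps3a3-high libraries, which hold 1 cKO library, and 4.01 (SE 0.23) within the Rps3a3-low libraries. It was 3.95 (SE 0.38) within the Xist-high and 3.54 (SE 0.12) within the Xist-low libraries. For Bex1 the values were 2.22 and 2.21 within the Rps3a3-high and Rps3a3-low libraries, for Bex4 2.23 and 2.14, and for Tceal5 1.33 and 1.43. Tceal8 stood at 0.54 and 0.59 and Tceal1 at -0.56 and -0.40. These within-set values belong to the contrast that chose the members and are a description. Tceal6, with few counts, stood at 1.71 (SE 0.59) and 0.71 (SE 0.48).

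**Figure D3:**
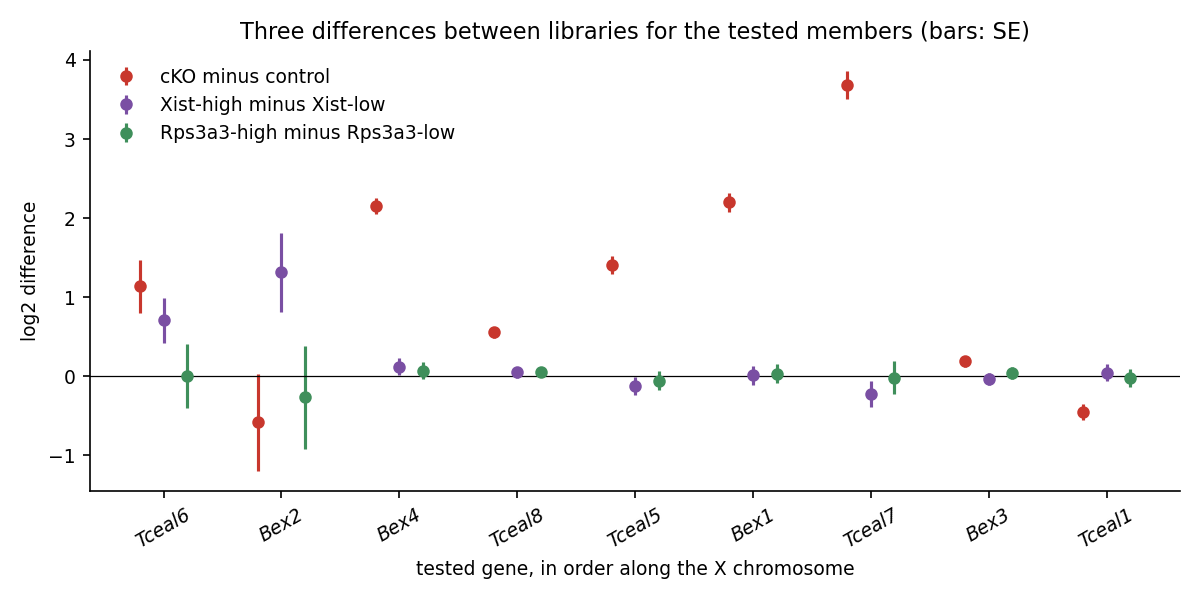
For each of the 9 tested members, in order along the X chromosome, points give the log2 difference of cKO minus control (red), Xist-high minus Xist-low (purple) and Rps3a3-high minus Rps3a3-low libraries (green), with bars of 1 SE. The red points reach 3.69 for Tceal7, while purple and green points lie between -0.23 and 0.12 for all members but the weakly detected Tceal6 and Bex2.

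The related genes of the same X-linked families, which are no members, were compared next. Of the 11 such genes with counts, 10 were tested and 0 were called (6.72% of all genes), with 1 at an adjusted p under 0.05 (16.3% of all genes), 2 at an unadjusted p under 0.05 and 2 at an adjusted p under 0.05 with DESeq2. That gene was Tceal9, which lies between Tceal7 and Bex3 (chrX:136245079-136247139). Tceal9 was measured at 78.7, 77.7, 93.7, 94.0 and 96.1 CPM in control and at 116, 107, 117 and 139 CPM in cKO libraries. It was higher in every cKO library, with a log2 fold change of 0.44 (SE 0.09, edgeR adjusted p = 0.00622). Gprasp1, a sorting protein for G protein-coupled receptors, stood at -0.41 (SE 0.15, edgeR adjusted p = 0.0873), and its kin Gprasp2 and Bhlhb9 at 0.20 and -0.01. The 6 Armcx genes, which encode armadillo-repeat proteins of the mitochondrial surface and nucleus, lay at -0.09 (Armcx4), -0.08 (Armcx1), 0.10 (Armcx6), -0.00 (Armcx3), 0.01 (Armcx2) and -0.01 (Armcx5) on the log2 scale. Bex6, the Bex gene on chromosome 16, held 3 counts over all libraries and was not tested. The median of the tested related genes was -0.01, against 0.01 over all genes.

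Of the 10 tested related genes, 3 passed the comparison of Rps3a3-high with Rps3a3-low libraries (4.81% of all genes), with 5 at an unadjusted p under 0.05 and 5 with DESeq2. Tceal9 was higher in the Rps3a3-high libraries by 0.28 on the log2 scale (SE 0.05, edgeR adjusted p = 0.0123), Gprasp1 by 0.41 (SE 0.10, adjusted p = 0.0393) and Armcx4 by 0.29 (SE 0.07, adjusted p = 0.0326). Whether members and related genes differ in this was not tested.

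Other genes of the region were compared over the stretch that reaches 2 Mb beyond the outermost members. It held 140 such genes, of which 35 were tested, with 3 called higher and 1 lower in cKO and a median log2 fold change of 0.09. Called genes made up 6.72% of the 551 X-linked genes tested, with 3.99% called higher. Tnmd, which encodes the tendon protein tenomodulin, rose by 2.77 (SE 0.35, edgeR adjusted p = 0.000281) from 0.543 ± 0.320 to 3.70 ± 0.807 CPM. Arxes1, an adipocyte gene that lies near Bex2, rose by 1.17 (SE 0.24, adjusted p = 0.00596), and Srpx2, which encodes a secreted sushi-repeat protein, by 0.60 (SE 0.13, adjusted p = 0.00936). Xkrx, of the Xk family of membrane proteins, fell by 0.67 (SE 0.18, adjusted p = 0.0249). The Srpx2 call was lost without cKO 4 or control 1 and with Xist level as a term. The Xkrx call was lost without cKO 1, cKO 2 or control 2. Bex4, Tceal8, Tceal5, Bex1 and Tceal7 follow each other along the chromosome with no other gene tested between them, and in each the cKO libraries lay above all controls. For the members this belongs to the contrast that chose them and is a description. It was also so for Tceal9, the next gene tested, and for Arxes1 and Arxes2 on the other side, which are no members. Between and beyond these, the groups overlapped for Bex2 and Bex3. Of all genes tested, 8.16% were higher in cKO without overlap.

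**Figure D4:**
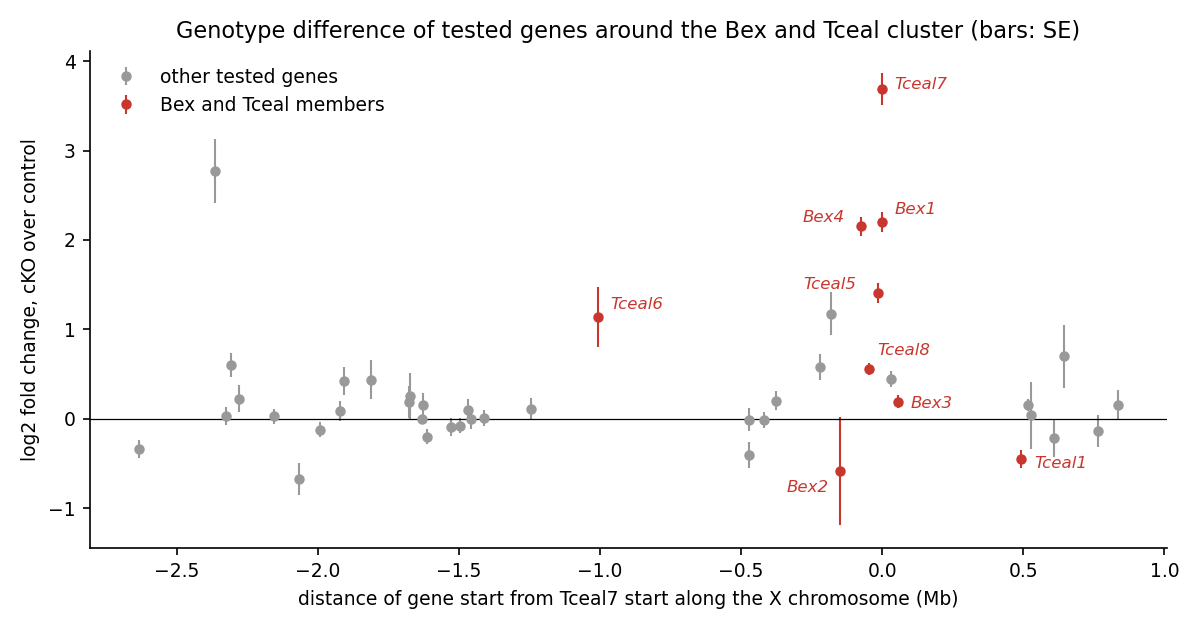
Points give the log2 fold change of cKO over control, with bars of 1 SE, against the distance of each tested gene's start from that of Tceal7 in Mb, for members (red, named) and other tested genes (grey). The highest red points sit together around 0 Mb, and the high grey point near the left end is Tnmd at 2.77.

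The neurotrophin receptor pathway, in which Bex1 and Bex3 are known, was followed through 22 genes, 21 of them tested. Called higher were 2, of which Bdnf is described here, and lower 0, while at the adjusted p alone 3 were higher and 3 lower. Of all genes, 4.01% were called higher and 2.72% lower, and 8.25% and 8.03% passed the adjusted p alone. The number called was 1 (Bdnf) with DESeq2 and without cKO 2, cKO 4, control 2, control 3 or control 4. Bdnf, the ligand brain-derived neurotrophic factor, was measured at 1.93, 1.56, 1.75, 2.61 and 2.07 CPM in control and at 13.1, 7.58, 9.13 and 9.97 CPM in cKO libraries. It was several-fold higher in every cKO library and rose by 2.32 on the log2 scale (SE 0.19, edgeR adjusted p = 7.7e-06). Ngfr, the p75 receptor that BEX proteins bind, was at 5.96 ± 1.35 and 7.47 ± 0.542 CPM, a log2 fold change of 0.33 (SE 0.17) that did not pass (adjusted p = 0.220). The receptor Ntrk2 fell by 0.53 (SE 0.16, adjusted p = 0.0448) and the sorting receptor Sort1 by 0.37 (SE 0.07, adjusted p = 0.00506). The list's median log2 fold change was -0.03, against 0.01 over all genes.

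Transcription elongation genes, after which the Tceal genes are named, were followed through 16 genes, all tested. Of these 0 were called higher and 1 lower, in a fit that called 2.72% of all genes lower. Tcea3, the TFIIS form of muscle and heart, fell from 45.1 ± 14.3 to 23.8 ± 4.87 CPM (log2 fold change -0.92, SE 0.24, edgeR adjusted p = 0.0284), a call that was lost without cKO 1, cKO 2, cKO 4 or control 1. Its level was 58.1 and 62.9 CPM in the Rps3a3-low control 1 and 2, and 38.6, 31.9 and 34.2 CPM in the Rps3a3-high control 3 to 5. With genotype in the model, the library sets differed by -0.73 on the log2 scale (SE 0.08, edgeR adjusted p = 0.00159). Its kin Tcea1 and Tcea2 stood at 0.07 (SE 0.11) and 0.13 (SE 0.11). Ccnt2, a cyclin of the elongation kinase P-TEFb, fell by 0.34 (SE 0.07, adjusted p = 0.00731). The list's median was -0.03.

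Because Bex and Tceal genes are known from neurons and endocrine cells, marker lists of the cells a ventricle can hold were read beside them. In bulk RNA, fewer cells of a type and less RNA per cell cannot be told apart. The 10 autonomic neuron markers summed to 29.4 to 45.5 CPM in control and 47.0 to 79.1 CPM in cKO libraries, without overlap. Of that sum Uchl1, which encodes a neuronal deubiquitinase, took 11.6 to 26.0 and 28.6 to 58.9 CPM. Of its 6 tested genes, Uchl1 (log2 fold change 1.14, SE 0.27, edgeR adjusted p = 0.0205) and Dbh (0.61, SE 0.17, adjusted p = 0.0258) were called higher and Gap43 lower (-0.66, SE 0.20, adjusted p = 0.0412). Th, which encodes the defining enzyme of sympathetic neurons, was at 0 in all controls and reached 0.0311 CPM at most in cKO libraries, and 4 of the 10 markers (Th, Elavl4 and Snap25 among them) stayed under 0.5 CPM in every library. The part of neuronal RNA in the Bex and Tceal values was not tested.

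The 4 chromaffin or endocrine markers summed to 0.492 to 1.26 CPM in control and 0.292 to 0.637 CPM in cKO libraries, with 3 of the 4 too low to test. The 5 Schwann cell markers summed to 11.7 to 18.1 and 7.85 to 15.7 CPM, with 0 called. The labelled tissue was checked with the 6 cardiomyocyte markers, which were abundant and summed to 45888 to 54054 CPM in control and 40957 to 44913 CPM in cKO libraries, lower in every cKO library. Of these Myl2, a ventricular myosin light chain, was lower at the adjusted p alone (log2 fold change -0.43, edgeR adjusted p = 0.00124). Of the 4 atrial markers, Nppa, a natriuretic peptide gene of fetal and stressed ventricle, and Myl7 were called higher. Myl4 (log2 fold change 0.16, edgeR adjusted p = 0.71) and Sln (-1.25, adjusted p = 0.262) did not pass. The list summed to 162.0 to 252.6 CPM in control and 900.9 to 2572 CPM in cKO libraries, of which Nppa took 102 to 123 and 711 to 2432 CPM. The 5 fibroblast markers summed to 1816 to 2257 and 2237 to 2720.5 CPM, with 0 called and 2 higher at the adjusted p alone (Col1a1 at 0.52, edgeR adjusted p = 0.0346, and Tcf21 at 0.48, adjusted p = 0.0182). Of the endothelial, mural, macrophage and erythroid lists 0 markers were called, and of the epicardial and skeletal muscle lists 1 each was called higher (Tbx18 and Acta1), while the epicardial marker Wt1 was lower at the adjusted p alone (-0.40, edgeR adjusted p = 0.0128). The part of these cell types in the member values was not tested.

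Genes whose levels followed the members most closely were looked for among all genes of at least 5 CPM. Over the 9 libraries, the Pearson r of log2 CPM with Tceal7 was highest for Slc35f1 (0.993), a member of a solute carrier family, Nt5e (0.988), the ecto-nucleotidase CD73, and Slc16a7 (0.987), the monocarboxylate transporter MCT2. Their log2 fold changes were 1.80, 1.49 and 1.62. With the mean of the 5 called members, r was highest for Limd1 (0.995), a LIM-domain adaptor protein, and stood at 0.993 for Prkag2, a regulatory subunit of AMP-activated kinase. The points fall into the control and cKO groups, so these values describe the common difference between the groups and the libraries they share.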

How the data were processed

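Poly(A) RNA of P7 ventricles was prepared by the authors as Illumina TruSeq stranded mRNA libraries and sequenced as single-end 75-base reads. The deposited values are raw counts of reads per Ensembl gene. The submitters' processing notes name the build mm10, STAR 2.4.2a and HTSeq 0.6.1, while the annotation and strand setting are not given in the sources used here. Gene symbols, spans and exon lengths came from GENCODE M21 and promoters from RefSeq (GRCm38.p6). Symbols were matched for 36345 of 38293 genes, which held 99.8% of all counts. The table held 0 columns of other samples.

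The study's methods name fewer control animals for RNA sequencing than the labels, which were followed. Groups came from the sample titles, with 5 control and 4 cKO libraries of 31011055 to 40073801 counts. Counts were tested with edgeR 4.0.16 (R 4.3.3): TMM scaling, filterByExpr with a minimum count of 10 (15318 genes), the robust quasi-likelihood F test and Benjamini-Hochberg adjustment over all genes tested. A call needed an adjusted p under 0.05 and a fold over 1.5. CPM are counts per 1000000 of the TMM-scaled total. Xist-high means 100 CPM or more and Rps3a3-high 10 CPM or more. The tests were run on simulated data, with changes placed only in well-counted genes and the same spread for all genes. This did not cover weakly detected genes such as Tceal6 and Bex2.

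Alternatives were DESeq2 1.42.0, RLE and upper-quartile scaling, other filters, no fold threshold, Xist level, Rps3a3 set or replicate number as a term, fits within library sets, and leaving out each library. Named genes were all members, all related genes, Arid1a, Xist, Rps3a3 and Rps3a1, up to 5 called genes of each other list by size of change, and the 3 genes of most like pattern. Ngfr, Ntrk2, Sort1, Tcea1, Tcea2, Ccnt2 and marker genes beyond that rule were named after their values were seen. The members, lists and library sets were chosen with earlier results of these data known. Some genes that this rule names are not reported here.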

Additional observations from a re-analysis of the deposited data

How the results depend on the processing

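Of the 9 tested members, Tceal7, Bex1, Bex4 and Tceal5 were called in all 9 fits that left out a library, with log2 fold changes of 3.57 to 3.80, 2.13 to 2.31, 2.11 to 2.19 and 1.34 to 1.46. Tceal6 was called in 2 of those 9 fits, and Tceal8 in 1. Members called numbered 4 to 6 in those fits, 5 with DESeq2 and with other scalings, and 4 without a filter, with the mean CPM filter and with the replicate number as a block, which dropped Tceal6 and, near the members, Srpx2 and Xkrx. Since this contrast chose the members, these fits describe them and are no independent support. Same-numbered control and cKO libraries deviated from their group means with correlations of -0.05, 0.07, -0.01 and 0.30. No clear pairing by number was seen, but such values cannot exclude a shared litter or handling. Of the neurotrophin list, 1 gene (Bdnf) was called in place of 2 with DESeq2, with Xist level as a term, with the mean CPM filter, with no filter and with the replicate block, and 1 to 2 without single libraries (1 without cKO 2, cKO 4, control 2, control 3 or control 4). Of the elongation list, 0 genes were called in place of 1 with no filter, and 0 to 1 without single libraries. The causes were not tested. Genes called near the members numbered 3 to 6 over the alternatives, against 4. No log2 fold change of a member changed sign under any alternative run. Tceal6, Bex2 and Tceal3 held at most 37 counts in a library, which limits them to large differences.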
